A study of Mus musculus with 32 samples.

Results

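The corticotropin-releasing hormone (CRH) and urocortin system was followed through mouse amygdala as 6 genes: the ligands Crh, Ucn and Ucn3, the receptors Crhr1 and Crhr2, and the binding protein Crhbp. They were taken by symbol from the exon count tables, where they are 6 of 25239 genes. The 26 libraries came from wild-type (WT) mice injected stereotaxically in the amygdala with 4-thiouridine (4sU, 100 mM in DMSO) or with DMSO alone, 24 h before RNA was extracted from the amygdala of both sides. There were 5 baseline 4sU, 4 baseline DMSO, 5 acute stress 4sU, 5 acute stress DMSO, 4 chronic stress 4sU and 3 chronic stress DMSO libraries. All groups thus share the injection surgery and the DMSO, and every RNA was alkylated. The labels give no age, sex or strain, do not describe the stressors, and call the tissue brain. Replicates are listed as samples of their own, with nothing on whether each is 1 animal. The p-values therefore rest on sample-to-sample spread, which may be partly technical.

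CRH is the peptide through which the hypothalamus drives pituitary release of adrenocorticotropic hormone, and in the central amygdala it is made by neurons that take part in fear and anxiety responses. CRH and urocortin 1 (Ucn) activate CRHR1, whereas urocortin 2 (Ucn2) and urocortin 3 (Ucn3) prefer CRHR2. Both receptors belong to the class B1 peptide receptors and couple mainly to Gs and cAMP. CRHBP is a secreted protein that binds CRH and urocortin 1 and keeps them from the receptors.

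Per the count tables' annotation (mm10), Crh lies on chromosome 3 at 19693401 to 19695396, Ucn on chromosome 5 at 31137989 to 31138895 and Ucn3 on chromosome 13 at 3940688 to 3945349. Crhr1 lies on chromosome 11 at 104132781 to 104175523 and Crhr2 on chromosome 6 at 55090049 to 55133016. Crhbp lies on chromosome 13 at 95431376 to 95444831. Crhr1 is on the plus strand and the other members on the minus strand. Promoter sequences from RefSeq (GRCm38.p6), each 250 bases before to 50 bases after the annotated start, were matched for 5 of the 6 members. Crh had no match, so its promoter was not searched. The promoters of Crhbp and Crhr2 are shown because these genes varied most among the members that passed the count filter apart from Ucn3, and that of Ucn because it held the full cAMP response element. Capitals mark the cAMP response element TGACGTCA, its shorter form TGACG, which any full element also holds, and the TATA box in the form TATAAA. Both strands were searched, and each sequence is given 5′ to 3′ on the gene's strand.
Crhbp, chr13:95444782-95445081, minus strand: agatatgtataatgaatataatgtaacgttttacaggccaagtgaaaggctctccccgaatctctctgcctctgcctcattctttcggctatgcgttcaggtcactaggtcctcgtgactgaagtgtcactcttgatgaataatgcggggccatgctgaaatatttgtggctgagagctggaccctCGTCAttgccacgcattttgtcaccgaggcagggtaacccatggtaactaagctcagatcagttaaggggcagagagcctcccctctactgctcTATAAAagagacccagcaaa
Crhr2, chr6:55132967-55133266, minus strand: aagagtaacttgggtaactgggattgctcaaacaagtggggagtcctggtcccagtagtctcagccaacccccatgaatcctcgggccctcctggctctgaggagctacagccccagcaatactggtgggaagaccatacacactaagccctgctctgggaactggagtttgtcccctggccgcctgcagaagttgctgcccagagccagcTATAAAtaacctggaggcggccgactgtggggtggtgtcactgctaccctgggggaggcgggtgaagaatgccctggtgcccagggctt
Ucn, chr5:31138846-31139145, minus strand: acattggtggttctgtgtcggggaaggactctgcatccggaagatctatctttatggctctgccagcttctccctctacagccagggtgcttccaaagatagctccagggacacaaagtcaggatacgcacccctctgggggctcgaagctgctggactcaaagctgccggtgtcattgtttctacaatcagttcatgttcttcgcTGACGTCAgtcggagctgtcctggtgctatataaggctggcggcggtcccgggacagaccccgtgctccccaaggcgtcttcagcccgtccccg

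Ucn was the only matched member with TGACGTCA, beginning 44 bases before the start. The promoter of Crh was not among those searched, so nothing is said here about its motifs. That element was in 588 (1.79%) of the 32851 promoters searched. Crhbp held 1 shorter form, on the opposite strand, beginning 64 bases before the start, and TATAAA just after the annotated start. TGACG was in 20.8% of the promoters and TATAAA in 13.6%. Crhr2 held TATAAA beginning 39 bases before the start. The promoters of Crhr1 and Ucn3 held none of these motifs. A match describes the letters in this window only.

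Amygdala libraries held 16150316 to 21228741 exon counts. The label amygdala was checked against 10 central amygdala markers, whose mean log2 CPM (counts per 1000000 exon counts) was 5.33 to 7.04 over the 26 libraries. Among them Prkcd, a marker of central amygdala neurons, was at 30.6 to 83.7 CPM. Libraries were uneven in other cell types. The mean log2 CPM of 10 glutamatergic markers lay more than 1 below the median library (5.61) in 5 libraries: chronic DMSO library 1 (3.82), chronic 4sU library 3 (4.55), and libraries 1 (3.95), 3 (3.03) and 4 (4.06) of acute DMSO. Chronic 4sU library 4 (4.65) was the next lowest. The mean of 9 choroid plexus markers was lowest in 4 of those 5, the 3 acute DMSO libraries and chronic 4sU library 3 (0.63 to 4.80, against 5.03 to 6.52 in the other 22), and none of the 9 was at 0 in any library. Within a group these sets are described as libraries that stand apart, and each call of a member below is also given without the 5. Fewer cells of a type and less RNA per cell cannot be told apart in bulk RNA. The conversion tables' headers number the 10 baseline and acute 4sU libraries as one series from 0 to 9 and the other 16 as another from 0 to 15. The division can also be seen in the share of reads in 3′ UTR intervals, 16.1% to 17.4% against 18.2% to 23.9%. Comparisons of 4sU with DMSO at baseline and under acute stress, and of chronic with baseline 4sU mice, cross this division, and there the 2 cannot be told apart. The acute contrasts within an injection, chronic against baseline or acute in DMSO mice, and 4sU against DMSO under chronic stress stay on 1 side of it.

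Per length of exon, Crhbp, Crh and Crhr1 were the most abundant members and lay close together. Over the 26 libraries Crhbp was at 7.71 ± 3.52 CPM per kb (SD, n = 26), Crh at 6.25 ± 1.29 and Crhr1 at 5.75 ± 0.817. Crhr2 followed at 1.65 ± 0.508, Ucn3 at 0.932 ± 0.640 and Ucn at 0.0720 ± 0.117 CPM per kb. The order was stable only between some neighbours. Crhr1 and Crh were each above Crhr2 in 26 of 26 libraries, whereas Crh was above Crhr1 in 14 and Crhbp above Crh in 15. Crhr2 was above Ucn3 in 22 of 26 libraries and Ucn3 above Ucn in 25. The plot of levels per exon length shows the members in this order.

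**Figure D1:**
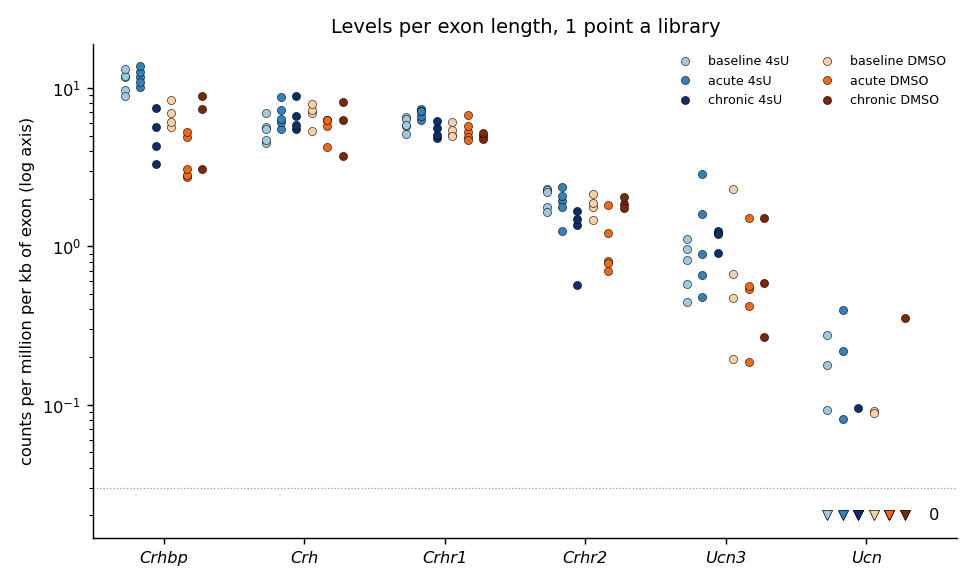
CPM per kb of exon (log axis) for the 6 members, with 1 point for each of the 26 libraries coloured by group; triangles below the dotted line mark groups with 1 or more libraries at 0 counts. Crhbp, Crh and Crhr1 span 2.73 to 13.7 together, Crhr2 lies between 0.566 and 2.36, and 16 of 26 libraries had no Ucn count.

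Crh itself, the main CRH-family ligand in these libraries, did not pass the test in any comparison. Its level in baseline DMSO libraries was 9.18, 9.60, 7.05 and 10.4 CPM, after acute stress 8.34, 8.31, 5.58, 7.58 and 8.26, and after chronic stress 10.7, 4.89 and 8.31. In 4sU mice it was 5.94, 7.49, 9.12, 6.18 and 7.24 CPM at baseline, 7.25, 8.06, 9.52, 11.6 and 8.39 after acute stress, and 7.22, 7.74, 11.7 and 8.75 after chronic stress. The groups overlapped in all 8 pairs of groups compared, and the 2 highest and the 2 lowest libraries came from 4 different groups. Acute against baseline, averaged over both injections, gave a log2 fold change of 0.07 ± 0.11 (SE; adjusted p = 0.846, edgeR). Acute against baseline was 0.33 ± 0.15 in 4sU mice (adjusted p = 1.00) and -0.18 ± 0.16 in DMSO mice (adjusted p = 0.620). Chronic against baseline was 0.22 ± 0.20 in 4sU mice (adjusted p = 0.356) and -0.19 ± 0.22 in DMSO mice (adjusted p = 0.948). A library held 86 to 225 Crh counts. In the 5 libraries low in glutamatergic markers Crh was at 5.58 to 11.7 CPM, against 4.89 to 11.6 in the other 21.

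Ucn3, the CRHR2-preferring ligand, was scarce and uneven between libraries. Its highest values were 4.26 CPM in acute 4sU library 2, 3.41 in baseline DMSO library 2, 2.35 in acute 4sU library 1 and 2.24 in acute DMSO library 4 and chronic DMSO library 1. Its lowest were 0.275 in acute DMSO library 5 and 0.289 in baseline DMSO library 3. High and low libraries thus occurred in the same groups, and the highest was 15.5 times the lowest. Acute 4sU library 2 was also the highest of all libraries in 8 medial amygdala markers (mean log2 CPM 3.60) and 10 hypothalamus markers (1.46). Baseline DMSO library 2, the second in Ucn3, was at 2.60 and -0.36. The part of these tissues in the Ucn3 level was not tested. Group means ran from 0.952 ± 0.752 CPM (SD, n = 5) in acute DMSO to 1.92 ± 1.45 (n = 5) in acute 4sU mice. Ucn3 did not pass in any comparison. Without acute DMSO library 4, its highest in that group, it passed for 4sU against DMSO under acute stress (log2 1.63, adjusted p = 0.0383, against 1.03 ± 0.58, adjusted p = 0.154, with all libraries). Acute against baseline gave 0.74 ± 0.57 on the log2 scale in 4sU mice (adjusted p = 1.00, edgeR) and -0.43 ± 0.64 in DMSO mice (adjusted p = 0.786). Its counts were 5 to 84 a library, and standard errors of 0.43 to 0.86 leave changes of that size undetectable here.

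Ucn and Ucn2 were at the limit of detection. Ucn had 22 counts over all 26 libraries, 0 to 5 in each, and 0 in 16 of them. All 5 acute DMSO libraries were at 0 for Ucn, and with 3 counts as the limit that a count of 0 allows, their levels could be up to 0.165 to 0.178 CPM. Ucn2, the urocortin outside the 6 members, had 32 counts, 0 to 4 a library. Neither passed the filter on low counts, so 5 of the 6 members were tested, and no order of groups can be read from them.

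**Figure D2:**
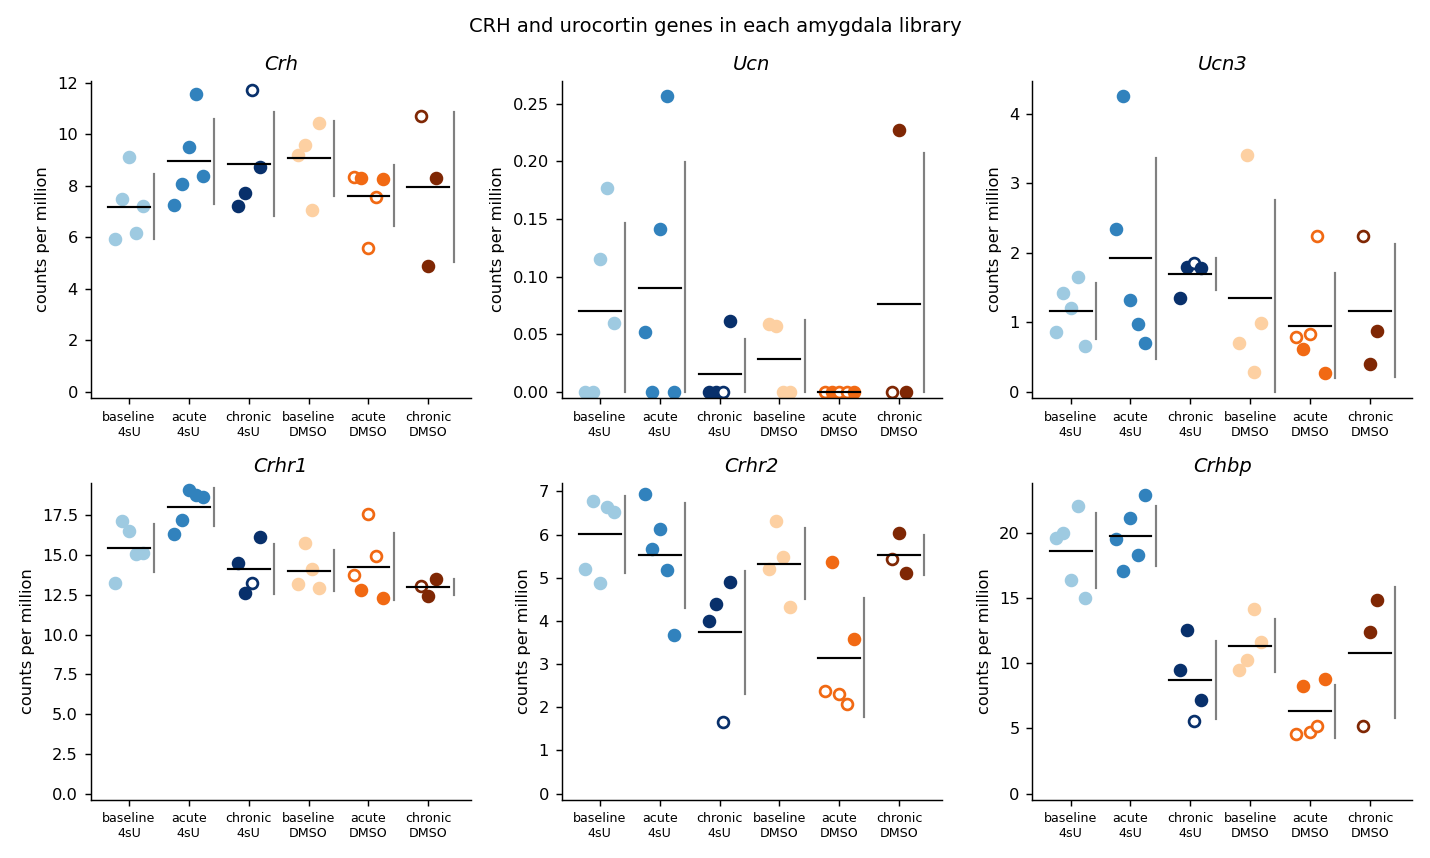
CPM of each member in every library, by group, with the mean as a black line and ± 1 SD as a grey bar (cut at 0). Open circles are the 5 libraries low in glutamatergic markers. Crhbp is at 4.59 to 5.60 in these 5 and at 7.22 to 23.0 in the other 21, whereas Crh and Crhr1 overlap between the 2 sets. The library at 7.22, chronic 4sU 4, was the next lowest in these markers. The share of all genes that separate the 2 sets was not counted.

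Crhbp, the binding protein, was the member that differed most between groups. In DMSO mice it was at 9.47, 10.2, 14.2 and 11.7 CPM at baseline, at 4.59, 8.26, 4.75, 5.17 and 8.82 after acute stress and at 5.20, 12.4 and 14.9 after chronic stress. In 4sU mice it was at 19.7, 20.1, 16.4, 22.1 and 15.01 CPM at baseline, at 19.6, 17.1, 21.2, 18.3 and 23.0 after acute stress and at 9.51, 12.6, 5.60 and 7.22 after chronic stress. All 10 baseline and acute 4sU libraries were above all 16 others, so the high values fell in the group of libraries numbered 0 to 9. Acute DMSO libraries did not overlap baseline DMSO libraries, and chronic 4sU libraries did not overlap baseline 4sU libraries. Chronic DMSO libraries overlapped baseline DMSO libraries. Among the other tested members only Crhr2 separated in a compared pair of groups, chronic 4sU from chronic DMSO. The share of all genes that separate in these ways was not counted, so separation is not read as a trait of Crhbp.

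Crhbp fell after acute stress in DMSO mice by 0.78 ± 0.19 on the log2 scale (adjusted p = 0.0314, edgeR), 1.72-fold. It was 1 of 5 tested members to pass, where 2.51% of the 15995 genes tested passed. The 3 lowest acute DMSO libraries were the 3 low in glutamatergic markers. Without the 5 low libraries the log2 fold change was -0.35 (adjusted p = 0.189), resting on acute DMSO libraries 2 and 5 at 8.26 and 8.82 CPM, still under the lowest baseline DMSO library. The call also ended, with log2 values near that of all libraries, when only these 2 groups were fitted (-0.81, adjusted p = 0.245), with all 6 groups in 1 fit (-0.79, adjusted p = 0.0887) and with 3′ UTR reads (-0.64, adjusted p = 0.163). Without baseline DMSO library 2, 3 or 4 or acute DMSO library 3 or 4 it ended as well, at -0.67 to -0.83 (adjusted p = 0.0593 to 0.121). In 4sU mice acute stress gave Crhbp a log2 fold change of 0.10 ± 0.17 (adjusted p = 1.00, edgeR). There 0 of 5 members passed, where 0.269% of genes did, with 2 members and 652 of 15995 genes at an unadjusted p under 0.05. The difference between the 2 acute effects, DMSO minus 4sU, was -0.88 ± 0.25 for Crhbp (adjusted p = 0.612). In edgeR that difference passed for 0 of 5 members and 0 of 15995 genes (0%), with 2 members and 916 genes at an unadjusted p under 0.05, and DESeq2 called 3 genes higher, 17 lower and 0 members. Averaged over both injections 0 of 5 members passed against 2.39% of genes. At an unadjusted p under 0.05 were 3 members (Crhr2, Crhr1 and Crhbp) and 2160 of 15995 genes.

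Crhbp was also higher with 4sU than with DMSO, in comparisons that cross the division in the library numbering. At baseline the log2 difference was 0.79 ± 0.18 (adjusted p = 0.00172, edgeR), 1 of 5 members against 41.9% of genes, so a call was common among all genes. Without the 5 low libraries, none of which is in these 2 groups, it was 0.79 (adjusted p = 0.000133). After acute stress it was 1.67 ± 0.18 (adjusted p = 3.66e-07), 3.18-fold, and Crhr2 and Crhr1 were higher too: 3 of 5 members against 48.3% of genes. Without the 5 low libraries the acute difference of Crhbp was 1.24 (adjusted p = 3.18e-05). Under chronic stress, where both injections stay on 1 side of the division, the difference was -0.30 ± 0.31 (adjusted p = 0.897, edgeR). There 0 of 5 members passed, where 0.137% of genes did, with 1 member, Crhr2, and 1475 of 16096 genes at an unadjusted p under 0.05. The 10 glutamatergic markers had a mean log2 CPM of 5.35 to 6.09 in the baseline and acute 4sU libraries and of 5.30 to 5.60 at baseline in DMSO mice. The 10 oligodendrocyte markers were lower on that side, at 8.01 to 8.59 against 9.09 to 10.15 in the other 16 libraries. The part of either in the Crhbp result was not tested.

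In chronic against baseline 4sU mice Crhbp fell by 1.18 ± 0.27 on the log2 scale (adjusted p = 0.00201, edgeR), 2.26-fold, and without the 5 low libraries by 1.01 (adjusted p = 0.000161). Of the groups compared, that set holds only chronic 4sU library 3. Chronic 4sU library 4, the next lowest in glutamatergic markers, stayed in, with Crhbp at 7.22 CPM. Crhr2 fell as well, which makes 2 of 5 members in a comparison where 56.5% of the 16096 genes tested passed and which also crosses the division. In DMSO mice the change of Crhbp was -0.07 ± 0.31 (adjusted p = 0.983), and 0 of 5 members and 0 of 16096 genes (0%) passed in edgeR, with 0 members and 913 genes at an unadjusted p under 0.05, and DESeq2 called 4 genes higher, 7 lower and 0 members. The chronic effect differed between injections for Crhbp, DMSO minus 4sU, by 1.10 ± 0.41 (adjusted p = 0.0471), 1 of 5 members against 38% of genes. This last call was lost with other size factors, no filter on low counts, or 1 of 12 libraries left out (baseline 4sU 1 to 4, baseline DMSO 1, 2 and 4, chronic 4sU 1, 3 and 4, and chronic DMSO 2 and 3; adjusted p = 0.0518 to 0.175). Without the 5 low libraries it was 1.26 (adjusted p = 0.00171). Chronic against acute stress in DMSO mice gave Crhbp 0.72 ± 0.27 (adjusted p = 0.212, edgeR). There 0 of 5 members passed, where 1.78% of genes did, with 2 members and 2215 of 16310 genes at an unadjusted p under 0.05. Without chronic DMSO library 1, which is low in glutamatergic markers, the Crhbp change was 1.06 (adjusted p = 0.0306).

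**Figure D3:**
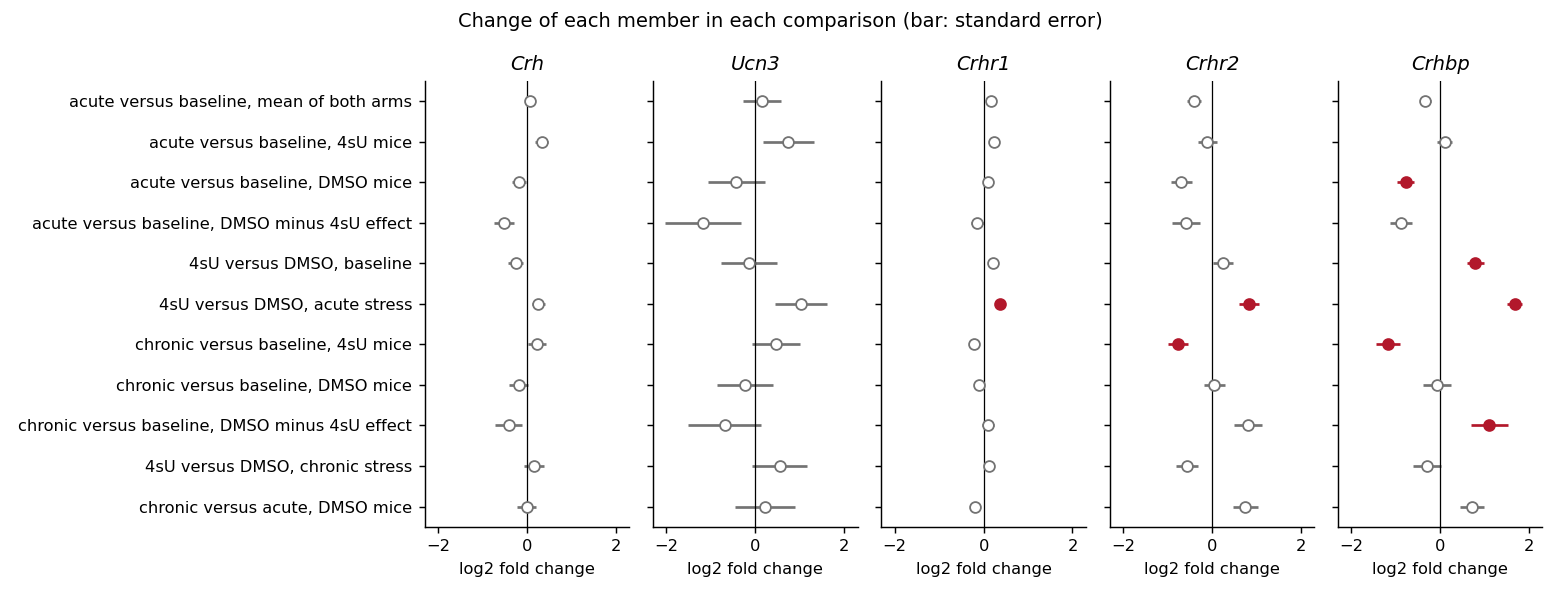
Log2 fold change (horizontal axis) of the 5 tested members in the 11 expression comparisons, with the standard error as a bar and filled red points for an adjusted p under 0.05. Crhbp holds 5 of the 8 filled points, Crhr2 holds 2, Crhr1 holds 1, and Crh and Ucn3 hold none.

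Crhr2, the receptor that urocortin 2 and urocortin 3 prefer, was lowest in the 4 libraries lowest in choroid plexus markers. It was at 5.20, 6.79, 4.88, 6.65 and 6.52 CPM in baseline 4sU, 6.94, 5.68, 6.12, 5.185 and 3.68 in acute 4sU and 3.99, 4.40, 1.67 and 4.89 in chronic 4sU libraries. In DMSO mice it was at 5.20, 6.31, 5.49 and 4.32 CPM at baseline, 2.38, 5.37, 2.32, 2.07 and 3.58 after acute stress and 5.44, 6.03 and 5.12 after chronic stress. The 4 libraries lowest in the choroid plexus list, acute DMSO 1, 3 and 4 and chronic 4sU 3, had 1.67 to 2.38 CPM, and the other 22 had 3.58 to 6.94, with no overlap. The cut after 4 libraries was by rank. The next library of the list, acute 4sU 5, had a mean log2 CPM of 5.03, against up to 4.80 in the 4. The share of all genes that separate these 2 sets was not counted, so separation is not read as a trait of Crhr2. Ttr, the transthyretin gene and the most abundant of the 9 choroid plexus markers, had a median of 2464 CPM over the 26 libraries and was at 2.27 in acute DMSO library 1. Crhr2 was 1.78-fold higher in 4sU than in DMSO mice after acute stress (log2 0.83 ± 0.23, adjusted p = 0.00484, edgeR). Without the 5 low libraries that difference was 0.33 (adjusted p = 0.265). Crhr2 fell in chronic against baseline 4sU mice by 0.76 ± 0.22 (adjusted p = 0.00568), and without the 5 libraries by 0.51 (adjusted p = 0.0119). After acute stress in DMSO mice its change was -0.69 ± 0.24 (adjusted p = 0.141), and leaving out acute DMSO library 2, the highest of the group, made it -0.96 (adjusted p = 0.00934). The part of choroid plexus tissue in these values was not tested.

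Crhr1, the main CRH receptor of the brain, was the steadiest member, with a highest library 1.55 times the lowest. In 4sU mice it was at 13.3, 17.2, 16.5, 15.1 and 15.1 CPM at baseline, 16.3, 17.2, 19.1, 18.8 and 18.7 after acute stress and 14.5, 12.6, 13.2 and 16.1 after chronic stress. In DMSO mice it was at 13.2, 15.8, 14.1 and 12.95 CPM at baseline, 13.8, 12.8, 17.6, 14.9 and 12.3 after acute stress and 13.1, 12.45 and 13.5 after chronic stress. Acute 4sU libraries were the highest group, and overlapped both baseline 4sU and acute DMSO libraries. Crhr1 was 1.28-fold higher in 4sU than in DMSO mice after acute stress (log2 0.36 ± 0.10, adjusted p = 0.00525, edgeR), and without the 5 low libraries 0.55 (adjusted p = 0.000955). Its acute change was 0.24 ± 0.10 in 4sU mice (adjusted p = 0.955) and 0.09 ± 0.11 in DMSO mice (adjusted p = 0.701), which turned to -0.09 without the 5 libraries. Chronic against baseline in 4sU mice gave -0.21 ± 0.09 (adjusted p = 0.0638). That change passed with 3′ UTR reads (-0.32, adjusted p = 0.0461), without baseline 4sU library 1 (-0.25, adjusted p = 0.0295) and without chronic 4sU library 4 (-0.23, adjusted p = 0.0465).

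The balance of the 2 receptors followed Crhr2. Per kb of exon, Crhr1 was 2.83 to 3.39 times Crhr2 in baseline DMSO libraries, 2.68 to 8.56 times in acute DMSO and 2.33 to 2.97 times in chronic DMSO libraries. In 4sU mice the ratio was 2.56 to 3.82 at baseline, 2.66 to 5.72 after acute stress and 3.24 to 8.95 after chronic stress. The ratio of Crhbp to Crh per kb was 1.25 to 2.81 in baseline and acute 4sU libraries and 0.375 to 1.99 in the other 16. These ratios use the same counts as the tests and were not tested themselves.

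**Figure D4:**
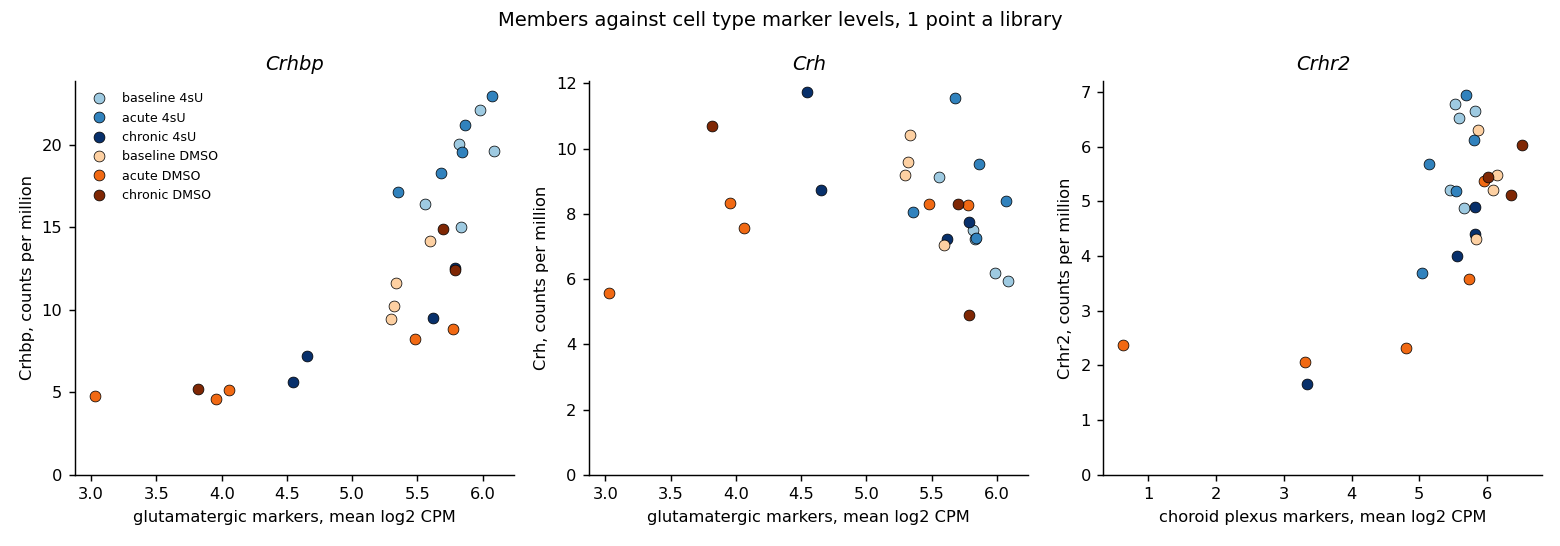
CPM of Crhbp and Crh against the mean log2 CPM of the glutamatergic markers, and of Crhr2 against that of the choroid plexus markers, with 1 point a library coloured by group. Crhbp is at 4.59 to 5.60 in the 5 libraries low in glutamatergic markers, Crh spans 5.58 to 11.7 in the same 5, and Crhr2 is at 1.67 to 2.38 in the 4 libraries lowest in choroid plexus markers. The share of all genes that separate these sets from the other libraries was not counted.

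Genes whose levels ran most like those of a member were found by Pearson correlation of log2(CPM + 0.1) over the 26 libraries, among 14008 genes with a mean of at least 1 CPM. These are descriptions over libraries that share groups and the division in numbering. Crhbp ran most like Rasal1 (r = 0.96, Spearman's rho = 0.97), Nptxr (0.95, 0.94) and Lingo1 (0.95, 0.96). For Rasal1 r was 0.88 within the 10 libraries numbered 0 to 9 and 0.90 within the other 16, and 0.95 without the 2 libraries farthest from the median of Crhbp. For Nptxr and Lingo1 it was 0.76 and 0.61 within the 10 and 0.89 and 0.91 within the 16. Crhr2 ran most like Trpv4 (r = 0.92, rho = 0.78), Ace (0.91, 0.76) and Drc3 (0.91, 0.80), with r = 0.61, 0.74 and 0.51 within the 10 libraries. Crhr1 ran most like Acsbg1 (r = 0.85, rho = 0.85), Dok7 (0.83, 0.84) and Paqr4 (0.82, 0.84). Ucn3 ran most like Cd99l2 (r = 0.71, rho = 0.69), Gabrq (0.68, 0.71) and Arhgap36 (0.66, 0.68). Crh had the weakest neighbours, Khdrbs2 (r = 0.66, rho = 0.63), Tmem91 (0.63, 0.63) and Alkbh3 (0.59, 0.53). Their r with Crh was 0.56, 0.24 and 0.19 within the 10 libraries and 0.73, 0.76 and 0.74 within the other 16. Between members the highest r was that of Crhr2 with Crhbp (0.70, rho = 0.57), which was 0.70 within the 16 libraries and -0.18 within the 10.

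After acute stress 1 gene each of peptide processing and of receptor signalling passed, in the average over both injections, where 2.39% of all genes did. Of 12 genes of neuropeptide processing and dense-core granules, 0 rose and 1 fell, with a median log2 fold change of 0.06 against 0.01 over all genes tested. The one that fell was Pcsk1, the prohormone convertase that cleaves neuropeptide precursors, by 0.30 ± 0.07 (adjusted p = 0.0244, edgeR). Pcsk1 fell in DMSO mice by 0.65 ± 0.10 (adjusted p = 0.00196, edgeR), from 42.7 ± 1.48 CPM (n = 4) to 25.9 ± 4.36 (n = 5). In 4sU mice 0 of the 12 genes passed, where 0.269% of all genes did. The difference between the 2 acute effects passed in edgeR for 0 of the 12 and for 0 of 15995 genes. A fall limited to DMSO mice is therefore not read from these calls. Libraries 1, 3 and 4 of acute DMSO were low in glutamatergic markers, and their part in the fall of Pcsk1 was not tested. Of 24 genes of receptor coupling and cAMP signalling found in the tables, 1 rose and 0 fell, with a median of 0.01 against 0.01. It was Rapgef3, a cAMP-activated exchange factor, with a log2 rise of 0.31 ± 0.06 (adjusted p = 0.00844, edgeR). In each injection taken alone 0 of the 24 passed. Of 13 other class B1 receptors and peptides tested, 0 rose and 0 fell, with 0 of 13 also in each injection taken alone. Their median log2 fold change was -0.05 against 0.01 over all genes tested. 

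Among stress axis genes only Fkbp5 passed in the acute against baseline comparisons. Fkbp5, a glucocorticoid-induced cochaperone of the glucocorticoid receptor, rose after acute stress by 0.84 ± 0.11 (adjusted p = 0.00015, edgeR), the 1 of 10 tested stress axis genes that rose, and none fell; their median was 0.25 against 0.01 over all genes. It went from 61.6 ± 5.50 CPM (n = 5) to 105 ± 5.83 (n = 5) in 4sU mice and from 57.2 ± 20.7 (n = 4) to 101 ± 9.10 (n = 5) in DMSO mice. It was 57.9 ± 8.06 CPM (n = 4) in chronic 4sU and 53.7 ± 5.20 (n = 3) in chronic DMSO mice, and lower in chronic than in acute DMSO mice by the test (log2 -0.98 ± 0.17, adjusted p = 0.00274). Pomc, the precursor of adrenocorticotropic hormone, had an acute log2 fold change of 0.38 ± 0.26 (adjusted p = 0.583) at 0.331 to 2.55 CPM. Avp, which encodes vasopressin, had one of 0.54 ± 0.42 (adjusted p = 0.650), with acute 4sU library 2 at 36.7 CPM against a median library of 2.87. The receptor genes Nr3c1 (glucocorticoid receptor) and Nr3c2 (mineralocorticoid receptor) had -0.19 ± 0.08 (adjusted p = 0.282) and 0.02 ± 0.13 (adjusted p = 0.976). Others passed for 4sU against DMSO, across the division in library numbering. At baseline Avp and Oxt were higher and Nr3c1 lower (log2 -0.54 ± 0.11, adjusted p = 0.000796, edgeR), where 41.9% of genes passed. After acute stress Avp was higher, and Hsd11b1 and Nr3c1 (-0.47 ± 0.11, adjusted p = 0.0012, edgeR) lower, where 48.3% passed.

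In chronic against baseline 4sU mice, a comparison across the division in which 56.5% of all genes passed, 9 of 24 receptor coupling genes rose and 12 fell, and the median was -0.23 against -0.02 over all genes tested. Crtc1, a coactivator of CREB, fell by 0.98 ± 0.06 there (adjusted p = 1.85e-10, edgeR), from 297 ± 12.96 CPM (n = 5) to 159 ± 11.9 (n = 4). Of 12 processing genes 3 rose and 4 fell, with Pcsk1n, which encodes the convertase inhibitor proSAAS, falling by 1.38 ± 0.07 (adjusted p = 1.03e-10). Of 13 other class B1 genes 2 rose and 4 fell, among them Vipr1, a receptor for vasoactive intestinal peptide, by 0.75 ± 0.12 (adjusted p = 2.31e-05). Of 10 stress axis genes 2 rose and 2 fell. Nr3c1 rose by 0.41 ± 0.06 (adjusted p = 2.24e-05, edgeR) and Pomc fell by 0.66 ± 0.25 (adjusted p = 0.0312). In chronic against baseline DMSO mice 0 of 24, 0 of 12, 0 of 13 and 0 of 10 passed, as did 0 genes in all.

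Incorporation of 4sU is read as T-to-C conversions in 3′ UTR intervals, and the members lay near the limit of what these libraries could show. Over all genes, conversions were 0.0478%, 0.0497% and 0.0627% of covered T positions on average in baseline, acute and chronic 4sU libraries and 0.0275%, 0.0242% and 0.0250% in the matching DMSO libraries. Crhr1 was the only member with a mean of at least 2000 covered T positions (2752), and so the only one tested. It had 0 conversions in 12403 covered positions in baseline 4sU libraries, where 3 counts would be 0.0242% and the exact 95% interval ends at 0.0297%, and 3 in 9491 in baseline DMSO libraries. In acute stress it had 3 in 17649 with 4sU and 7 in 14236 with DMSO, and in chronic stress 4 in 11058 and 1 in 6716. All 3 of the acute 4sU conversions came from 1 library. In edgeR 0 of 1 tested member passed for 4sU against DMSO at baseline, after acute and after chronic stress, where 7.2%, 11.6% and 14.1% of 8662 genes did. It passed for neither acute nor chronic against baseline 4sU mice either, where 0.0115% and 0.3% of genes did. Of these 5 tests, 4sU against DMSO at baseline, where Crhr1 had fewer conversions with 4sU, and chronic against baseline 4sU mice had an unadjusted p under 0.05. So did 1322 and 703 of the 8662 genes, respectively. With so few conversions no fold is given.

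For the other members conversions were counted without a test. Crhbp had 33 in 29156 covered positions over the 14 4sU libraries, 0.113% (exact 95% interval 0.0779% to 0.159%), where the libraries' overall rates would give 14.8. Over the 12 DMSO libraries it had 8 in 12237, 0.0654% (0.0282% to 0.129%), where the overall rates would give 3.17. The count was thus above the overall rate in both arms, and 12 of 14 4sU libraries and 6 of 12 DMSO libraries held at least 1. In acute 4sU library 2 alone there were 9 of the 20 conversions of that group. Crh had 3 in 21003 with 4sU, 0.0143% (0.00295% to 0.0417%), where 11.3 would be given by the overall rates, and 7 in 22024 with DMSO, 0.0318% (0.0128% to 0.0655%). Crhr2 had 8 in 15978 with 4sU, 0.0501% (0.0216% to 0.0986%), and 4 in 12847 with DMSO, 0.0311% (0.00848% to 0.0797%). Ucn3 had 7 in 3434 with 4sU, 0.204% (0.0820% to 0.420%), and 4 in 2235 with DMSO, 0.179% (0.0488% to 0.458%). All 11 conversions were in 3 libraries, with 5 in baseline 4sU library 4 and 4 in acute DMSO library 4. Ucn had no covered position. Reads carry no molecular identifier and neighbouring conversions can share a read, so intervals cover counting error only.

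**Figure D5:**
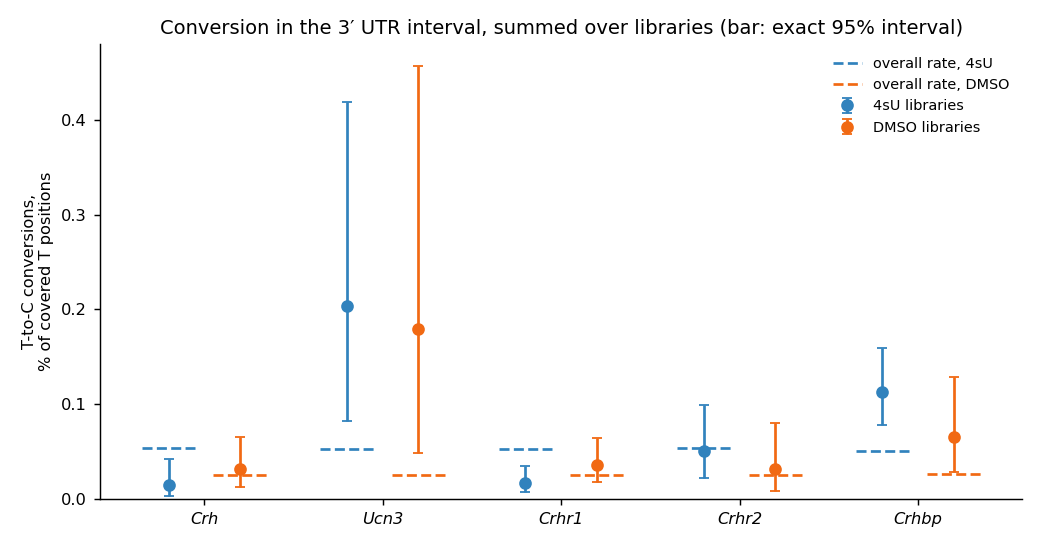
T-to-C conversions as a percent of covered T positions (vertical axis) in the 3′ UTR interval of 5 members, summed over the 14 4sU libraries and the 12 DMSO libraries, with exact 95% intervals and dashed lines for the libraries' overall rate. Crhbp is at 0.113% with 4sU and 0.0654% with DMSO, and the 4sU intervals of Crh and Crhr1 end at 0.0417% and 0.0351%.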

How the data were processed

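RNA of the bilateral amygdala was alkylated and made into sequencing libraries, per the labels' protocols. The authors deposited whole-number exon counts per gene symbol in 2 tables, which share 9 baseline columns that differ in 0 values. Tools named in the submitters' processing notes are featureCounts 2.0.1, HISAT2 2.1.0, cutadapt 3.1 and SAMtools 1.9, with the mm10 build. Settings, strand use and treatment of shared reads: not given in the sources used here. Per the file headers, slamdunk 0.4.3 gave counts of covered T positions, T-to-C conversions and reads for each 3′ UTR interval, and the conversion rate as a fraction deposited beside them. Here conversions were recomputed from those counts.

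Depth was 16150316 to 21228741 exon counts a library. CPM are counts per 1000000 exon counts of a library. Tests were two-sided edgeR 4.0.16 quasi-likelihood fits (R 4.3.3, TMM, low-count filter at 10, robust) with Benjamini-Hochberg adjustment over all genes tested and a threshold of 0.05. Each table was fitted with its 4 groups together, and all 6 groups were fitted jointly for chronic against acute stress and for conversions. Conversions were modelled with covered T positions as offset, for genes with a mean of at least 2000, and in stress comparisons also with the library's overall rate. Intervals are exact 95% binomial, and 3 counts set the limit that a count of 0 allows. The fits were tested on simulated data with known changes. Summaries used Python 3.11.15 with scipy 1.17.1. Alternatives were DESeq2 1.42.0, RLE size factors, no filter, other sets of groups, 3′ UTR reads, a replicate block, other conversion settings and each library left out.

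The members and gene lists were chosen with earlier results of these data known. All members and Ucn2 were named whatever their values, and Pomc, Avp, Nr3c1, Nr3c2 and Fkbp5 likewise. From each pathway list up to 3 genes with the smallest p among those past the threshold could be named, and for each tested member the 3 genes of highest Pearson r, leaving out predicted genes. Marker genes were named only beside a member's value or to check the tissue. The alternative without 5 libraries was chosen after seeing the data. Auditory cortex libraries of the series were not used here.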

Additional observations from a re-analysis of the deposited data

Results flagged for a closer look

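In 4 of 29 member-by-group sets, 1 library lay far from the rest by Dixon's criterion, which chance meets in about 1 of 20 sets. That rate does not hold for counts near 0 such as those of Ucn, so no excess is read from the 4. Crh was lowest in acute DMSO library 3 at 5.58 CPM, against 7.58 to 8.34 in the other acute DMSO libraries. That library was also the lowest of all in glutamatergic markers, and the part of this in its Crh level was not tested. Ucn3 was highest in acute DMSO library 4 at 2.24 CPM, against 0.275 to 0.831 in the others of the group. Ucn3 was lowest in chronic 4sU library 1 at 1.35 CPM, against 1.77 to 1.85. Ucn was at 0.0612 CPM in chronic 4sU library 4, which is a single count, and at 0 in the other chronic 4sU libraries.

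The effect of chronic stress on Crhbp differed between injections by the test of the difference itself, DMSO minus 4sU, with a log2 value of 1.10 (adjusted p = 0.0471, edgeR). The call was lost with RLE size factors, with no filter, with the replicate block (adjusted p = 0.0751) and with 1 of 12 libraries left out (adjusted p up to 0.175). The 4sU side of this difference crosses the division in library numbering, so injection and that division cannot be told apart.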

How the results depend on the processing

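Of the 8 calls of a member (edgeR), 0 changed direction and 26 of 206 alternatives ended a call. The 2 Crhbp calls and the Crhr1 call for 4sU against DMSO, and the Crhbp and Crhr2 calls for chronic against baseline 4sU mice, held under every alternative run. In acute against baseline DMSO mice 1 member was called, and 0 with only the groups compared, all 6 groups in 1 fit, 3′ UTR reads, the replicate block or without the 5 libraries low in glutamatergic markers; leaving out 1 library gave 0 to 2. For 4sU against DMSO at baseline 3′ UTR reads gave 2 in place of 1, with Crhr1 added (0.48, adjusted p = 0.00347). For the difference between chronic effects 1 was called, and 0 with RLE size factors, no filter or the replicate block, 2 with DESeq2 (Crhr2 added, 0.79, adjusted p = 0.0387), and 0 to 1 with 1 library left out, where Crhr2 passed without baseline 4sU library 3 (0.88, adjusted p = 0.0434) or chronic 4sU library 4 (0.93, adjusted p = 0.0320). Leaving out 1 library gave 0 to 1 in place of 0 for the acute mean (Crhr2 without acute DMSO library 2, -0.53, adjusted p = 0.0230) and for chronic against acute DMSO mice (Crhr2 without acute DMSO library 2, 1.03, adjusted p = 0.0219, and Crhbp without chronic DMSO library 1).

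Changes of sign were all in values that passed no test. Without the 5 libraries Ucn3 in the acute mean was -0.39, Crhr1 in acute DMSO mice -0.095 and Crhbp in chronic DMSO mice 0.25. With 3′ UTR reads Crh was -0.060 in the acute mean, -0.012 for 4sU against DMSO under acute stress and 0.22 for chronic against acute, Ucn3 was 0.29 for 4sU against DMSO at baseline and 0.11 in chronic DMSO mice, and Crhbp was 0.0047 in chronic DMSO mice. With only the groups compared Crh was 0.015 for chronic against acute. With 1 library left out Ucn3 ranged from -0.14 to 0.67 in the acute mean, -1.03 to 0.60 in acute DMSO mice, -0.50 to 0.89 for 4sU against DMSO at baseline, -1.08 to 0.82 in chronic DMSO mice, -1.59 to 0.31 for the difference between chronic effects and -0.63 to 0.82 for chronic against acute. Crh ranged from -0.46 to 0.068 in chronic DMSO mice, -0.090 to 0.43 for 4sU against DMSO under chronic stress and -0.26 to 0.27 for chronic against acute. Crhr2 ranged from -0.21 to 0.0075 in acute 4sU mice and -0.033 to 0.14 in chronic DMSO mice, and Crhbp from -0.36 to 0.26 in chronic DMSO mice. The cause was not tested.

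Replicate numbers did not pair the libraries: over 58 same-numbered pairs the correlation of deviations was -0.51 to 0.40, with 19 above 0.1, and 4 of 26 libraries correlated best with their own number. With the replicate block Crhbp was -0.83 in acute DMSO mice (adjusted p = 0.0546) and 1.15 for the difference between chronic effects (adjusted p = 0.0751), Ucn3 was 0.32 for 4sU against DMSO at baseline and Crh 0.014 for chronic against acute. It changed no other call.

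A minimum of 5000 covered T positions left no member to test, and Crhr1 conversion without acute 4sU replicate 2 gave no value. Depth limits Ucn, Ucn2 and Ucn3 most, and conversions of all members.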
